A study of Mus musculus with 16 samples.

Results

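Genes that mark Schwann cells at the surface or in their signalling were followed in the inner ear of mice that carry extra copies of 3 microRNA genes. The 10 genes were Erbb3, S100b, Cdh19, L1cam, Ncam1, Lgi4, Cadm4, Cadm1, Gfra3 and Art3, taken as Schwann lineage genes whose use is not limited to myelinating cells. Each had 1 probeset with a single gene symbol, out of 34760 probesets and 19937 genes named in this way, so all 10 were measured. The arrays were Affymetrix MoGene arrays, and each value is a deposited log2 signal, on which a difference of 1 is a doubling. The brightness of a probeset depends on its probes, so signals were compared between arrays and never between genes.

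Tg/Tg animals were homozygous for the transgene Tg(GFAP-Mir183,Mir96,Mir182)1MDW, in which a core human GFAP promoter drives miR-183, miR-96 and miR-182, and came from 1 of several lines made in FVB/NCrl mice, so that a single insertion site stands for the genotype. WT littermates of the same strain were the controls. The microdissected organ of Corti (OC) at age 5 days (P5) gave 5 Tg/Tg and 5 WT arrays, and the cochlea at 18 days (P18) gave 3 Tg/Tg and 3 WT arrays. Tissue changed with age, and effects of age and tissue cannot be told apart. The sample names call the arrays of a group biological replicates, but neither labels nor methods say whether an array holds 1 animal or a pool, so the p-values measure the spread between samples.

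Schwann cells ensheathe the processes of spiral ganglion neurons. Axons show neuregulin to the ErbB2 and ErbB3 receptor pair on the glial surface, and this signal supports Schwann cell survival, migration and, later, myelin. Contact is built by adhesion molecules of the immunoglobulin, nectin-like and cadherin families, and secreted Lgi4 acts through its receptor Adam22 to promote myelination. S100b, a calcium-binding protein, and Sox10, a transcription factor, are widely used to mark the lineage in its immature and mature states.

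The mature microRNAs that the transgene adds are shown because they define the Tg/Tg groups, with the seed (bases 2 to 8) in capitals, from RefSeq on build GRCm38.p6. The coordinates are those of the endogenous genes and not of the transgene, which the paper maps to another chromosome. All endogenous copies lie on the minus strand of chromosome 6, miR-183 at chr6:30169711-30169732, miR-96 at chr6:30169506-30169528 and miR-182 at chr6:30165962-30165986.
mmu-miR-183-5p: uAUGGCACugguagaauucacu
mmu-miR-96-5p: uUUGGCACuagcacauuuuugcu
mmu-miR-182-5p: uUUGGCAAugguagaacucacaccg
The seeds are closely alike but none is shared by 2 of the 3. The arrays measured these genes as probesets of the transgene, and Mir182 averaged 8.29 ± 0.32 (SD, n = 5) in Tg/Tg and 4.83 ± 0.46 (SD, n = 5) in WT at P5. At P18 it averaged 7.96 ± 0.02 (SD, n = 3) in Tg/Tg and 3.88 ± 0.05 (SD, n = 3) in WT, and every Tg/Tg array lay above every WT array for Mir183, Mir96 and Mir182. Groups were taken from the sample names. The remaining label fields, with ages of 5.5 and 18.5 days, disagree with the names of samples in tissue, age and genotype. The transgene probesets follow the names in genotype, and they do not bear on tissue or age.

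Several facts of the arrays bear on what follows. Arrays within a group correlated at 0.98 to 0.99. At P5, replicates 1 to 2 stood apart from replicates 3 to 5 in both genotypes. The mean over fibroblast markers was 10.87 to 11.11 on the former and 10.58 to 10.69 on the latter. The mean over supporting cell markers was 9.24 to 9.36 and 9.47 to 9.66. The cause of this split was not tested. The mean signal of Kdm5d, Uty and Eif2s3y, which are Y-linked, lay between 8.61 and 8.96 on 1 of 5 Tg/Tg and 4 of 5 WT arrays at P5, and between 3.90 and 4.06 on the others, so that the sex signal went largely with genotype there. At P18 it was 7.65 to 7.66 in Tg/Tg and 7.22 to 7.34 in WT, so that every P18 array lay between the high and low P5 levels. Whether the P18 arrays hold pools of animals was not tested. In a pool, the SD between arrays would not measure the spread between animals. P5 WT replicate 1 is the WT array with low Y-linked signal, and 8 of the 10 genes lay below their group mean on it. At P18 all 10 skeletal muscle markers were higher in Tg/Tg (median log2 difference 2.36) and 6 of 8 cerebellar granule cell markers were lower (median -0.71). Over all probesets 0.383% were called higher there and 0.0604% lower.

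At P5, Art3, Lgi4 and Cadm4 fell in the Tg/Tg OC and none of the 10 genes rose, at the adjusted p or at an unadjusted p under 0.05. Art3 and Lgi4 were each about 1.7-fold lower (1.68-fold and 1.69-fold) and Cadm4 was 1.31-fold lower. The 3 of 10 genes called lower stand against 0.549% of all probesets, and the 0 of 10 called higher against 0.0604% (limma, two-sided, adjusted p under 0.05 over all probesets). The difference was negative for 8 of the 10 genes, with a median of -0.25 on the log2 scale beside -0.01 over all probesets, and 6 genes, all lower, had an unadjusted p under 0.05, where 9.09% of all probesets were lower at that threshold and 16.4% differed in either direction. Groups did not overlap for 2 of the 10 genes, both lower, where 1.29% of all probesets had every Tg/Tg array below every WT array and 0.383% had every one above. Differences were also read within replicates 1 to 2 and within replicates 3 to 5. In that order they were -0.55 and -0.88 for Art3, -0.55 and -0.90 for Lgi4, and -0.28 and -0.46 for Cadm4. L1cam gave -0.26 and -0.54, Ncam1 -0.08 and -0.38, Cadm1 -0.05 and -0.28, and Erbb3 -0.21 and -0.27. S100b gave -0.04 and -0.02, Cdh19 0.26 and -0.02, and Gfra3 0.05 and 0.18. In bulk tissue, fewer cells of a type and less RNA per cell cannot be told apart.

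Art3 encodes a protein of the ADP-ribosyltransferase family that is anchored to the cell surface. Its log2 signal at P5 was 8.82, 8.89, 8.83, 8.24 and 8.63 on the Tg/Tg arrays and 9.35, 9.45, 9.47, 9.37 and 9.51 on the WT arrays. All Tg/Tg arrays lay below all WT arrays, and Tg/Tg replicate 4 was the lowest. The log2 difference was -0.75 (SE 0.10, limma adjusted p = 0.000981). It was -0.63 among arrays with high Y-linked signal (1 Tg/Tg against 4 WT) and -0.70 among those with low signal (4 Tg/Tg against 1 WT). With the Y-linked mean as a covariate the difference was -0.67 (limma adjusted p = 0.0412).

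Lgi4 is the secreted Schwann cell signal described above. Its log2 signal at P5 was 7.02, 7.13, 7.37, 6.96 and 6.94 in Tg/Tg and 7.29, 7.97, 7.77, 8.19 and 7.995 in WT. WT replicate 1 was the single WT array within the Tg/Tg range, below Tg/Tg replicate 3, and the other 4 WT arrays were clear of it. The log2 difference was -0.76 (SE 0.14, limma adjusted p = 0.0152). It was -0.96 among arrays with high Y-linked signal and -0.19 among those with low signal, where the only WT array is replicate 1, and the call was lost with the Y-linked covariate (-0.58, limma adjusted p = 0.364). Among the arrays of low signal, sex and that array cannot be told apart.

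Cadm4, a nectin-like adhesion molecule of the Schwann cell that binds axonal Cadm3, was closer to the threshold. Its log2 signal at P5 was 8.63, 8.60, 8.86, 8.58 and 8.52 in Tg/Tg and 8.87, 8.92, 9.05, 9.13 and 9.16 in WT. The groups touched without overlapping, at Tg/Tg replicate 3 and WT replicate 1. The log2 difference was -0.39 (SE 0.08, limma adjusted p = 0.0358). It was -0.43 and -0.23 among arrays with high and low Y-linked signal, and with that covariate it was -0.33 and no longer passed (limma adjusted p = 0.467). It passed in 10 of 26 alternatives, where Lgi4 passed in 21 of 26 and Art3 in 26 of 26.

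**Figure D1:**
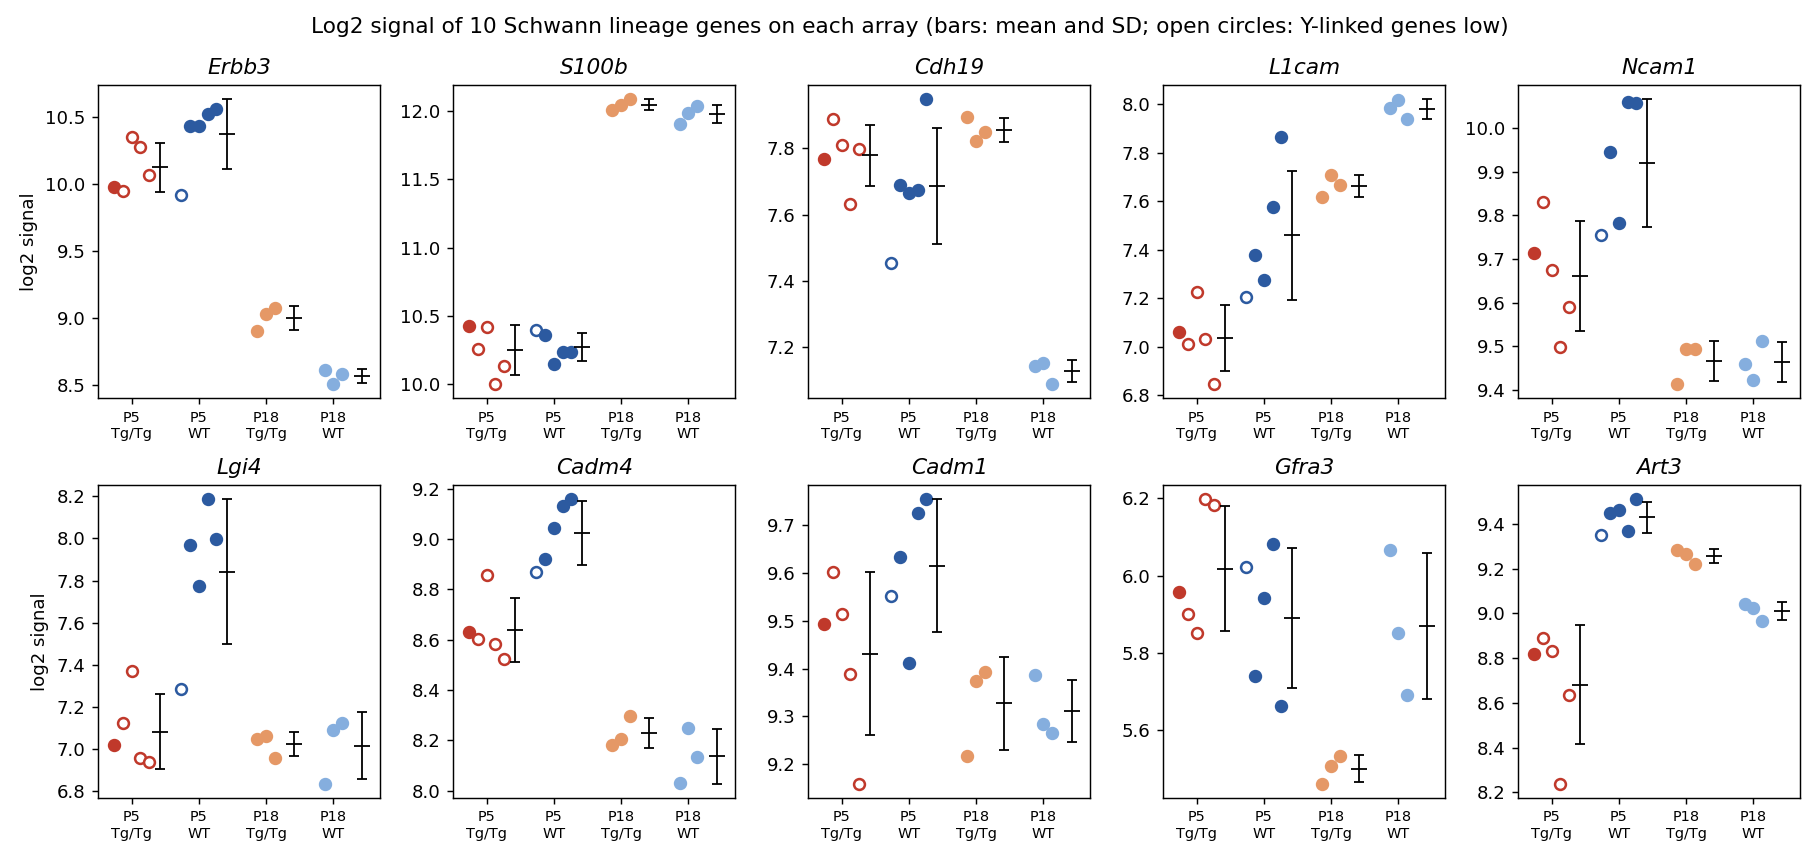
Log2 signal (vertical axis) of each of the 10 genes on each array, by group (horizontal axis), with the group mean and SD as bars; open circles are P5 arrays with low Y-linked signal, and the scale differs between panels. Art3 and Cadm4 do not overlap between genotypes at P5, the open WT circle is low for Lgi4 and Erbb3, and Cdh19 splits by genotype at P18.

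L1cam, Ncam1 and Cadm1 had values below WT at P5 without passing the test. L1cam, an immunoglobulin-type adhesion molecule found on both axons and immature Schwann cells and encoded on the X chromosome, was 7.06, 7.01, 7.23, 7.03 and 6.85 in Tg/Tg and 7.21, 7.38, 7.27, 7.58 and 7.87 in WT. Only Tg/Tg replicate 3 and WT replicate 1 crossed. The log2 difference was -0.42 (SE 0.11, limma adjusted p = 0.101), and it passed in 5 of 26 alternatives. It was -0.46 among arrays with high Y-linked signal and -0.18 among those with low signal, where the only WT array is replicate 1. Ncam1, which axons and non-myelinating Schwann cells carry, lay between 9.50 and 9.83 in Tg/Tg and between 9.76 and 10.06 in WT. Its log2 difference was -0.26 (SE 0.08, limma adjusted p = 0.168). Cadm1, a relative of Cadm4 that is also found on axons, gave -0.18 (SE 0.09, limma adjusted p = 0.312), with ranges of 9.16 to 9.60 and 9.41 to 9.76.

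The receptors and the general lineage markers did not pass at P5. Erbb3, the neuregulin receptor, was 9.98, 9.95, 10.36, 10.28 and 10.07 in Tg/Tg and 9.92, 10.43, 10.44, 10.52 and 10.57 in WT. WT replicate 1 was below every Tg/Tg array and the other WT arrays were above all of them. The log2 difference was -0.25 (SE 0.11, limma adjusted p = 0.296), with -0.51 among arrays of high and 0.24 among arrays of low Y-linked signal. S100b differed by -0.03, with a 95% interval of -0.20 to 0.15. Cdh19, a cadherin that marks Schwann cell precursors, differed by 0.09 (-0.08 to 0.26), and Gfra3, the co-receptor for artemin, by 0.13 (-0.09 to 0.34).

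At P18, Cdh19 was the gene that rose, 1.65-fold in the Tg/Tg cochlea, and Lgi4, Cadm4 and Art3 had differences of 0.01, 0.09 and 0.25 on the log2 scale. The 1 of 10 genes called higher stands against 0.383% of all probesets, and the 0 of 10 called lower against 0.0604%, with L1cam and Gfra3 lower at an unadjusted p under 0.05 (0.0373 and 0.0123). At that threshold 4 of the 10 genes differed at P18, with Cdh19 and Erbb3 (unadjusted p = 0.00975, limma) the higher ones. Of all probesets, 3.42% were lower at P18 and 8.77% differed in either direction. The median log2 difference of the 10 was 0.04 beside -0.02 over all probesets. Groups did not overlap for 5 genes, Cdh19, Erbb3 and Art3 with Tg/Tg higher and L1cam and Gfra3 with Tg/Tg lower, in a comparison where 14% of all probesets were separated upward and 13.6% downward. With 3 arrays a group such separation is common.

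Cdh19 had log2 signals of 7.89, 7.82 and 7.85 in Tg/Tg and 7.14, 7.15 and 7.09 in WT at P18. The groups were far apart for their spread, with Tg/Tg at 7.85 ± 0.04 (SD, n = 3) and WT at 7.13 ± 0.03 (SD, n = 3). The log2 difference was 0.73 (SE 0.10, limma adjusted p = 0.00197), a 1.65-fold rise, and it passed in 25 of 25 alternatives. The Tg/Tg level was near that of the P5 groups, at 7.78 ± 0.09 in Tg/Tg and 7.69 ± 0.18 in WT (SD, n = 5 each), and the P18 WT level was the lowest of the 4. The skeletal muscle and granule cell markers moved in the same samples, and their part in the Cdh19 difference was not tested.

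Erbb3 at P18 was 8.90, 9.03 and 9.08 in Tg/Tg and 8.61, 8.51 and 8.58 in WT, with every Tg/Tg array higher. The log2 difference of 0.44 (SE 0.15) did not pass (limma adjusted p = 0.333). It passed narrowly when the ages were fitted apart (limma adjusted p = 0.0489) and with array weights (0.00775). Art3 was 9.29, 9.27 and 9.22 against 9.04, 9.02 and 8.97, a difference of 0.25 (SE 0.13, limma adjusted p = 0.634). L1cam was 7.62, 7.71 and 7.67 against 7.99, 8.02 and 7.94, lower on every Tg/Tg array as its mean had been at P5, with a difference of -0.32 (SE 0.14, limma adjusted p = 0.525). Gfra3 was 5.46, 5.51 and 5.53 against 6.07, 5.85 and 5.69, a difference of -0.37 (SE 0.13, limma adjusted p = 0.359).

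The remaining genes were close between genotypes at P18. Ncam1 differed by 0.00 on the log2 scale, Lgi4 by 0.01, Cadm1 by 0.02, S100b by 0.07 and Cadm4 by 0.09, and their adjusted p-values lay between 0.896 and 0.997 (limma). The 95% interval for Lgi4 ran from -0.37 to 0.39 and that for Cadm4 ran from -0.13 to 0.31. Lgi4 was low in both genotypes at this age, at 7.02 ± 0.06 in Tg/Tg and 7.02 ± 0.16 in WT (SD, n = 3 each), close to its P5 Tg/Tg level of 7.08 ± 0.18 (SD, n = 5).

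**Figure D2:**
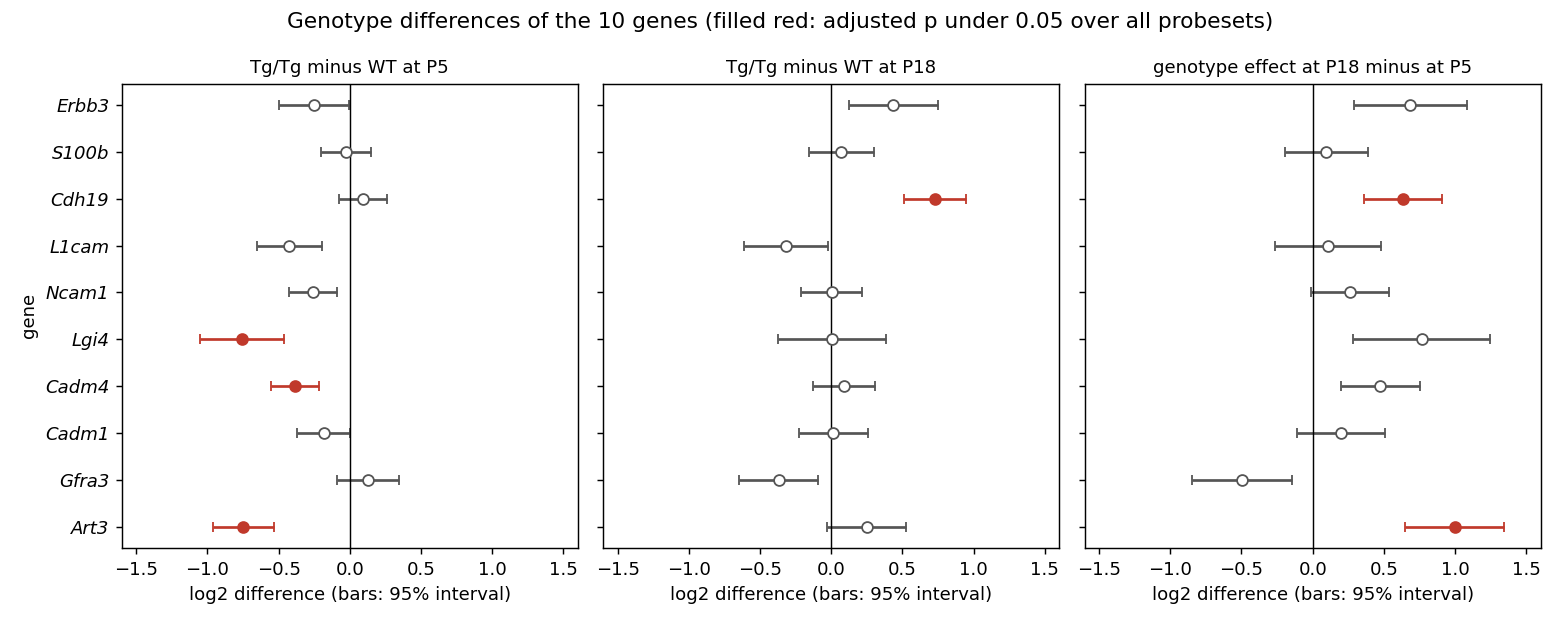
Log2 difference (horizontal axis) of each gene in the 3 genotype comparisons, with 95% intervals; filled red points have an adjusted p under 0.05 over all probesets. Lgi4, Cadm4 and Art3 are the called genes at P5 (left), Cdh19 at P18 (middle), and Cdh19 and Art3 in the difference between the genotype effects (right).

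The genotype effects at the 2 ages were compared by their difference, P18 effect minus P5 effect. Art3 moved from -0.75 at P5 to 0.25 at P18, a difference of 0.996 (SE 0.16, limma adjusted p = 0.00682). Cdh19 moved from 0.09 to 0.73, a difference of 0.63 (SE 0.13, limma adjusted p = 0.0356). The 2 of 10 genes called higher stand against 0.541% of all probesets and the 0 of 10 called lower against 0.0547%. The difference was positive for 9 of the 10 genes, with a median of 0.37 beside -0.00 over all probesets, and Gfra3 was the exception at -0.50 (limma adjusted p = 0.209, unadjusted p = 0.00844). An unadjusted p under 0.05 was reached by 6 of the 10 genes and by 14.3% of all probesets. Lgi4 at 0.77, Erbb3 at 0.69 and Cadm4 at 0.48 had adjusted p-values of 0.162, 0.131 and 0.13, so that a different effect at the 2 ages was not shown for them. Without P5 WT replicate 1, Erbb3 at 0.80 (limma adjusted p = 0.011) and Lgi4 at 0.91 (0.0154) passed as well. The Cdh19 call was lost with most single arrays left out, and both calls were lost with the Y-linked covariate, Art3 at 0.91 (limma adjusted p = 0.0557) and Cdh19 at 0.54 (0.217).

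Between P5 OC and P18 cochlea of WT mice, 9 of the 10 genes differed, 2 higher and 7 lower, where 19.8% of all probesets were higher and 30.2% lower. S100b rose by 1.70 (SE 0.10, limma adjusted p = 7.06e-10), from 10.27 ± 0.10 (SD, n = 5) to 11.98 ± 0.07 (SD, n = 3). Erbb3 fell by 1.81 (SE 0.13, limma adjusted p = 1.41e-08), from 10.38 ± 0.26 (SD, n = 5) to 8.57 ± 0.05 (SD, n = 3). These genes thus differed in opposite directions between the P5 OC and the P18 cochlea, each far beyond the spread between arrays. L1cam rose by 0.52, while Cadm4 fell by 0.89, Lgi4 by 0.83, Cdh19 by 0.56, Ncam1 by 0.46, Art3 by 0.42 and Cadm1 by 0.30, with adjusted p-values of 0.021 or less (limma). Gfra3 differed by -0.02, with a 95% interval of -0.27 to 0.23. Centring each array on its median ended the calls of Art3 (-0.22, limma adjusted p = 0.121) and Cadm1 (-0.11, 0.419), and that of Cadm1 was also lost without P18 WT replicate 2 (0.0671) or replicate 3 (0.0751).

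The order of the 4 group means differed between genes. Erbb3, Ncam1, Lgi4, Cadm4 and Cadm1 were highest in P5 WT, followed by P5 Tg/Tg, P18 Tg/Tg and P18 WT. In this order the 2 P18 groups of Ncam1, Lgi4, Cadm4 and Cadm1 did not differ beyond their spread. S100b was highest in P18 Tg/Tg, with neither pair of genotypes apart beyond its spread. L1cam was highest in P18 WT and lowest in P5 Tg/Tg, and Art3 was highest in P5 WT and lowest in P5 Tg/Tg, with both P18 groups between. Cdh19 was lowest in P18 WT, and Gfra3 was lowest in P18 Tg/Tg.

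Few pathway partners of these genes passed, and those at P5 were nectin-like. None of 17 neuregulin and ErbB genes passed at P5 or P18, with medians of -0.10 and 0.03 and with 3 and 1 at an unadjusted p under 0.05 (limma). Nrg1, the axonal ligand, was 6.92 ± 0.12 in Tg/Tg and 7.19 ± 0.16 in WT at P5 (SD, n = 5 each; limma adjusted p = 0.175), with every Tg/Tg array lower. Erbb2, the partner receptor of Erbb3, differed by -0.14 (limma adjusted p = 0.464). None of 6 LGI and ADAM genes passed at either age (1 and 0 at an unadjusted p under 0.05), and Adam22, the receptor of Lgi4, differed by -0.06 at P5 (limma adjusted p = 0.731). Sox10, which marks the lineage, was 9.32 ± 0.18 in Tg/Tg and 9.46 ± 0.20 in WT at P5 (SD, n = 5 each; limma adjusted p = 0.466), and differed by -0.08 at P18.

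Of 10 measured nectin-like partners, 2 fell and none rose at P5, with a median of -0.17, where 0.549% of all probesets were called lower. At an unadjusted p under 0.05, 4 of the 10 were lower (limma), beside 9.09% of all probesets. Cadm3, the axonal partner of Cadm4, fell by 0.75 (SE 0.09, limma adjusted p = 0.000477), from 7.25 ± 0.19 in WT to 6.50 ± 0.16 in Tg/Tg (SD, n = 5 each). Pals2, a membrane scaffold protein that binds Cadm4, fell by 0.72 (SE 0.09, limma adjusted p = 0.000707). No nectin-like partner passed at P18. Cadm3 differed by -0.23 there and Pals2 by 0.18, and the difference between the ages passed for Pals2 at 0.90 (limma adjusted p = 0.00812) but not for Cadm3 at 0.52 (0.158).

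The other families had no called gene at P5 or P18. The unadjusted p was under 0.05 at P5 and at P18 for 2 and 2 of 10 genes of the L1 and NCAM families, 2 and 0 of 9 of the GDNF family and its receptors, 3 and 0 of 15 of the S100 family, 2 and 2 of 18 other cadherins, and 1 and 0 of 3 measured ADP-ribosyltransferases (limma). These counts, like those of the neuregulin and LGI genes, are read against 16.4% of all probesets at P5 and 8.77% at P18. Ret, the signalling receptor that pairs with Gfra3, differed by 0.02 at P5 and -0.09 at P18, and Artn, its ligand artemin, by 0.06 and -0.10. Their group means, 5.49 to 6.32, lay below the median signal of every array (6.33 or more), where a change could be missed. Among the cadherins Cdh10, a neural member, differed by 0.46 at P18 (limma adjusted p = 0.0871). Art1, Art4 and Art5 differed by 0.25, 0.22 and 0.32 at P5, opposite in sign to Art3, and none passed. Their P5 group means, 5.53 to 5.90, lay below the median signal of every P5 array (6.51 or more). Differences of such dim probesets do not show an opposite response.

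Other Schwann lineage genes moved in both directions. Of 23, 4 fell and 1 rose at P5 with a median of 0.03, and 2 rose and none fell at P18 with a median of 0.17. Over all probesets 0.549% were called lower and 0.0604% higher at P5, and 0.0604% lower and 0.383% higher at P18. At an unadjusted p under 0.05, 8 of the 23 were lower and 4 higher at P5, and 6 were higher at P18 (limma). That threshold was met by 16.4% of all probesets at P5 and 8.77% at P18. At P5, Sema3b, a secreted semaphorin, fell by 0.995 (limma adjusted p = 2.02e-06), Itga6, a laminin receptor subunit, by 0.80 (9.26e-05) and Dhh, the hedgehog ligand of Schwann cells, by 0.78 (0.000329). Itga4, an integrin of immature lineage cells, rose by 0.47 (limma adjusted p = 0.019). At P18, Fabp7, a fatty acid-binding protein of Schwann cell precursors and glia, rose by 0.94 (limma adjusted p = 1.33e-05) and Itgb8, an integrin subunit, by 0.72 (0.00664). Itgb8 had been the other gene to fall at P5, by 0.47 (limma adjusted p = 0.0218), and its difference between the ages was 1.20 (0.000428). Ngfr, the low-affinity neurotrophin receptor of immature and non-myelinating cells, differed by 0.05 at P5 (limma adjusted p = 0.869) and -0.16 at P18 (0.898).

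The median fall of the myelin genes at P5 was larger than that of the 10 genes. Of 17 measured peripheral myelin genes, 16 fell at P5 and none rose, with a median of -1.51, and at P18 2 rose and none fell, with a median of 0.22. Over all probesets 0.549% were called lower at P5 and 0.383% higher at P18. Mbp, a structural myelin protein, fell by 1.03 at P5 (SE 0.09, limma adjusted p = 1.03e-05), from 10.48 ± 0.07 to 9.45 ± 0.23 (SD, n = 5 each), and differed by 0.02 at P18. The falls of Lgi4, Cadm4 and Art3 were thus all smaller than the myelin median, as a description of these arrays. The P5 differences of the myelin list ran from -2.91 to -0.10, a range that held those of all 3 genes. The paper had already listed many of these myelin genes as lowered on the same arrays. None of 11 neuron markers passed at either age. At an unadjusted p under 0.05, 4 were lower at P5 and 1 at P18, where 9.09% and 3.42% of all probesets were lower (limma). The neuron medians were -0.34 at P5, with 9 of 11 negative, and -0.08 at P18, with 8 of 11 negative. The P5 median of the 10 genes, -0.25, was thus no larger a fall than that of the neuron markers. The mean over the neuron list was 8.28 to 8.81 on the Tg/Tg arrays and 8.57 to 9.11 on the WT arrays at P5. No marker of melanocytes, oligodendrocytes, astrocytes, fibroblasts, macrophages, hair cells or supporting cells passed in either genotype comparison, and at an unadjusted p under 0.05 at most 3 of any of these lists did (limma).

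**Figure D3:**
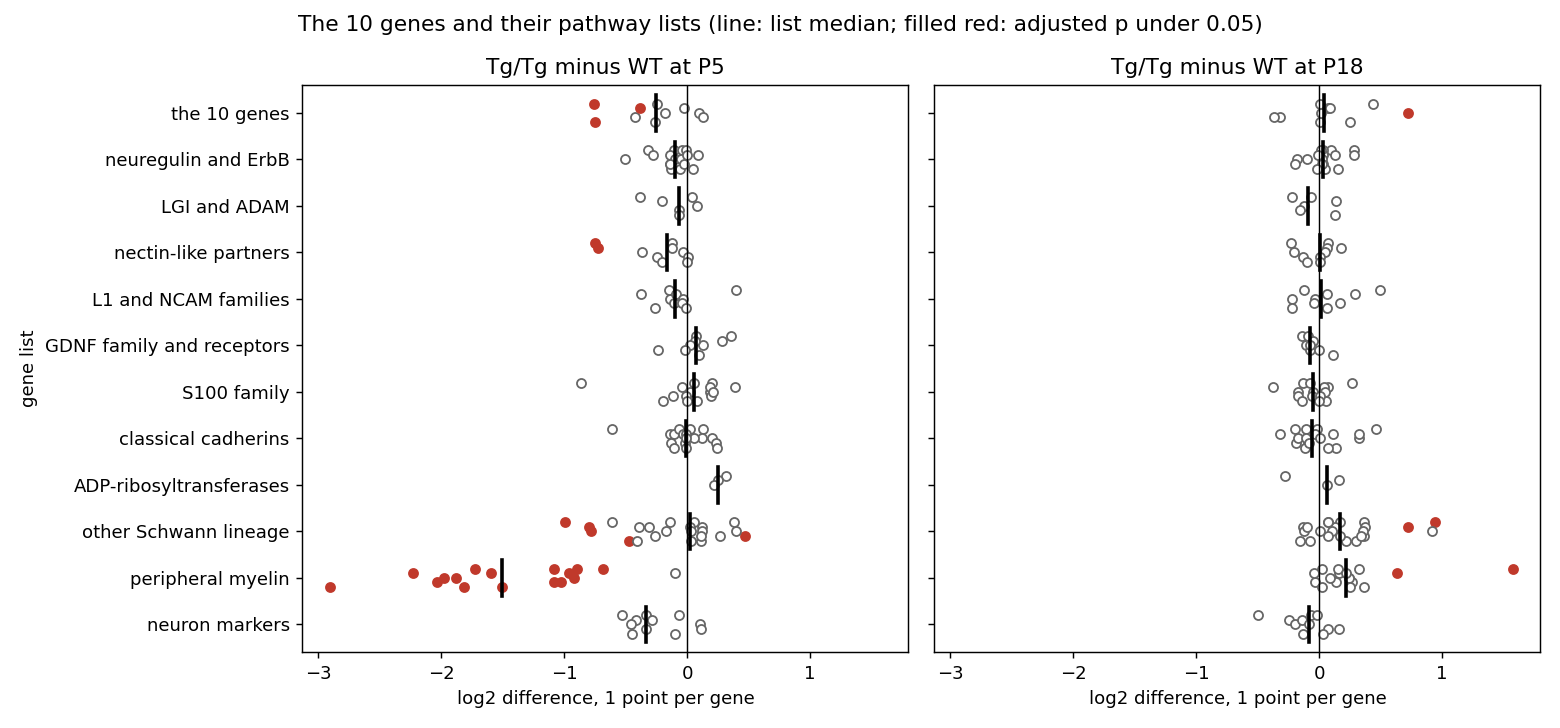
Log2 difference (horizontal axis) of the 10 genes and of the genes in each pathway or marker list (rows) at P5 (left) and P18 (right), with 1 point per gene, the list median as a line, and filled red points for an adjusted p under 0.05. The peripheral myelin row lies far to the left at P5 with a median of -1.51, while the median of the 10 genes is -0.25.

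Within groups the 10 genes did not vary as 1 block. Over deviations from the group means on 16 arrays, which share arrays and scaling, 16 of 45 pairs of genes correlated above 0.5 and 12 below 0, with a median of 0.38 and a range of -0.57 to 0.76. Of the 12 pairs below 0, 9 were the pairs of Gfra3 with the other genes, and Gfra3 lay at 5.46 to 6.20 on these arrays, below the median signal of every one of them (6.33 or more). L1cam deviated with the mean of the neuron markers (r = 0.80), as did Cadm1 (0.69), Cadm4 (0.66) and Ncam1 (0.59). Art3 deviated with the mean of the myelin genes (r = 0.73), as did S100b (0.65), Ncam1 (0.62) and Cadm1 (0.56), whereas Erbb3 (-0.32) and Gfra3 (-0.53) ran against it. Lgi4, the secreted signal, had r = 0.44 with the neuron markers and 0.17 with the myelin genes.

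**Figure D4:**
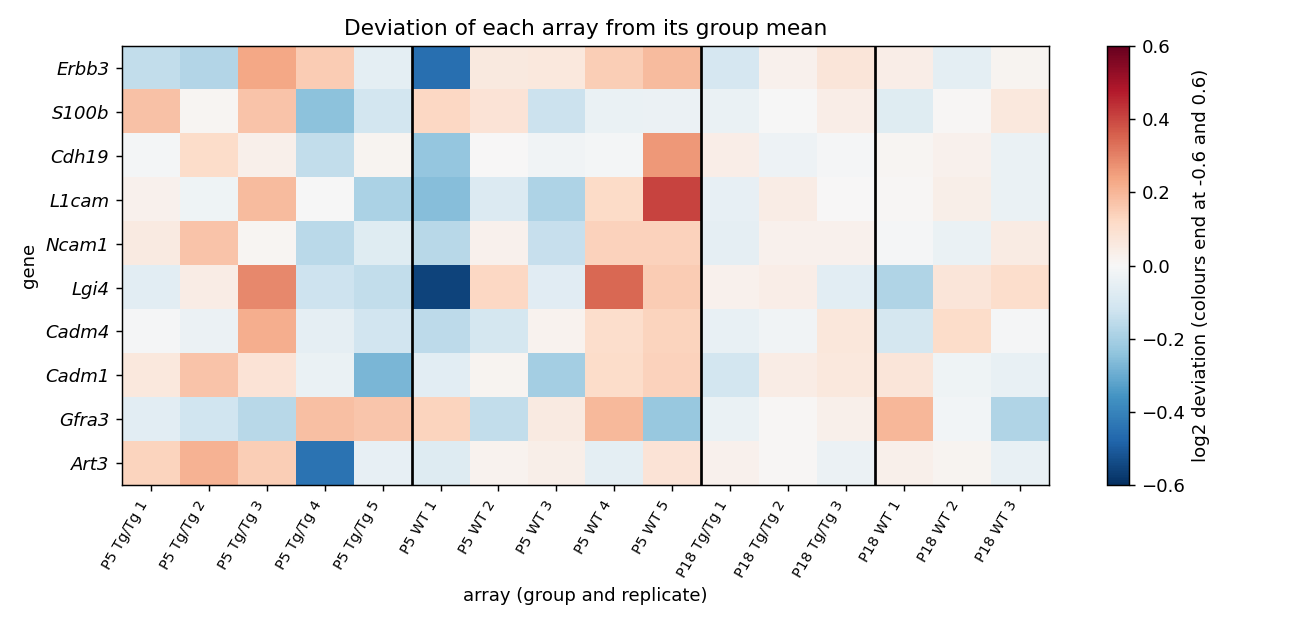
Deviation of the log2 signal from its group mean (colour) for each gene (rows) on each array (columns). Lgi4 and Erbb3 are low on P5 WT replicate 1, Art3 is low on P5 Tg/Tg replicate 4, and L1cam is high on P5 WT replicate 5.

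The genes with the most similar patterns over the 16 arrays, by Pearson's r, were named for each gene as a description. Those of Art3 were Cldn19 (r = 0.95), a tight junction protein of Schwann cells, Pmp22 (0.95), a protein of compact myelin, and Arhgap19 (0.93). With group means taken out they were Gpr137b (0.92), Resf1 (0.91) and Osmr (0.88) in their place. Cdh19 was nearest to Togaram1 (0.94), Mstn (0.89), the muscle growth inhibitor myostatin, and Papolg (0.87), and with group means taken out to Abca8a (0.89), Ncapd3 (0.88) and Zfp536 (0.88). L1cam was nearest to Septin3 (0.98), Mast1 (0.97) and Trim9 (0.96), and with group means taken out to Zfp112 (0.96), Hs3st5 (0.93) and Crmp1 (0.92). Septin3 and Trim9 are known from neurons. Lgi4 was nearest to Aatk (0.96), Plekha4 (0.95) and Tnik (0.95). For Erbb3, S100b and Cadm4, r reached 0.98 or more, with Elp2 (0.99), Sqor (0.998) and Afap1l2 (0.98) as the nearest, where the step between the ages sets most of the value. L1cam, with r = 0.98 to Septin3, also differed between the ages in WT. Once group means were taken out, Erbb3 was nearest to Grik3 (0.94), Matn2 (0.93) and Gabre (0.93), of which Matn2 is a matrix protein of peripheral nerve. Ncam1 was nearest to Hdhd3 (0.91), Galnt17 (0.91) and Sv2a (0.90), the last a synaptic vesicle protein. Over the 16 arrays Cadm1 was nearest to Nav1 (0.91), Ywhab (0.90) and Dok5 (0.89). Gfra3, of low signal, was nearest to Muc5b (0.93), Abcg8 (0.93) and Kcnmb3 (0.91). With group means taken out, Gfra3 was nearest to Olfr1258 (0.92), Fam170b (0.92) and Spata16 (0.91).

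Promoter sequence was read for Art3 and Cadm4, which both fell at P5. RefSeq promoters on GRCm38.p6, 250 bases before to 50 after a start, were matched for 4 of the 10 genes, Art3, Cadm4, L1cam and S100b, in 7 entries. Both strands were searched for the SOX-type motifs ACAAAG and ACAATG, which 18.7% and 12.6% of all 32851 promoters hold, for the EGR-type motif GCGNGGGCG (5.55%) and for the TEAD-type motif GGAATG (14.7%), each motif counted on its own. A SOX-type match lay in 1 Art3 entry and in the Cadm4 entry, and the windows are shown with the match in capitals, both on the plus strand of the genome with the motif on the minus strand, at chr5:92388079-92388108 for Art3 and chr7:24481890-24481919 for Cadm4.
Art3: tccctaaaccctCTTTGTtaagtttactga
Cadm4: tccctctccccgCATTGTctgggcccctct
TEAD-type matches lay in 2 Art3 entries, and no EGR-type match was found in the 7. A match is a description of letters in these windows.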

How the data were processed

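Total RNA, labelled with biotin, had been hybridised to 16 Affymetrix MoGene arrays. The deposited values are log2 signals of 34760 probesets that the authors had normalized, between 2.09 and 13.72 and none missing. The background correction, the normalization and the genome build are not given in the sources used here, and the submitters' processing notes name limma. The number of arrays limits the precision. Arrays were grouped by sample name.

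No further normalization or filter was applied. One linear model with a mean for each of the 4 groups was fitted over all arrays with lmFit of limma 3.58.1 (R 4.3.3) and moderated with eBayes, on 12 residual degrees of freedom and a prior of 3.23. Tg/Tg was contrasted with WT at P5 and at P18, the P18 effect with the P5 effect, and P18 WT with P5 WT. P-values are two-sided, with Benjamini-Hochberg adjustment over all probesets within a contrast, and called at an adjusted p under 0.05 with no fold limit. The fit was tested on simulated data. The platform table pairs 21640 probesets with 1 gene symbol and 1321 with several. A gene was read from its probeset of highest mean signal, and Cadm2, Art2a, Art2b, Prx and Ddx3y were among listed genes with no probeset of a single symbol. Some listed genes are not reported here.

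The 10 genes, the lists and the tests were chosen with earlier results of these data known, and the paper had named Lgi4 and Cdh19 from these arrays. Named genes were the 10 genes, at most 4 of a list with the smallest adjusted p in a contrast, the partners Nrg1, Erbb2, Adam22, Cadm3, Ret, Artn, Sox10 and Ngfr, the myelin gene Mbp, and the 3 genes with the highest Pearson's r over all arrays or over deviations from group means. Art1, Art4 and Art5 are all the measured members of their list. The alternatives tried were separate fits per age, a replicate block, the brighter 50% of probesets, probesets with 1 symbol, quantile normalization, centring on medians, a variance trend with robust estimation, array weights, the Y-linked mean as a covariate, a term for P5 replicates 1 to 2 against 3 to 5, and each array left out. Values within arrays of high or low Y-linked signal were added after the data were seen. Figures were made in Python 3.11.15 (matplotlib 3.10.9).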

Additional observations from a re-analysis of the deposited data

Results flagged for a closer look

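Erbb3 on P5 WT replicate 1 stood apart from the other arrays of its group, at a log2 signal of 9.92 where the next WT array had 10.43. The gap was 0.79 of the range of the 5 WT arrays, above Dixon's critical value for a group of that size, and chance alone sets apart about 1 in 20 groups, with 20 combinations of a gene and a P5 group tested. The same array was the lowest WT array for Lgi4, Cdh19, L1cam, Ncam1, Cadm4 and Art3, and it was the WT array with low Y-linked signal.

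The genotype effect of Art3 differed between P18 cochlea and P5 OC by 0.996 on the log2 scale (limma adjusted p = 0.00682), with Tg/Tg lower than WT on all arrays at P5 and higher on all arrays at P18. The P18 difference of Art3 alone, 0.25, did not pass (limma adjusted p = 0.634), and 14% of all probesets were separated upward at P18. The genotype effect of Cdh19 differed by 0.63 (limma adjusted p = 0.0356), with Tg/Tg higher on all arrays at P18 and overlapping groups at P5.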

How the results depend on the processing

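Art3 at P5 passed in 26 of 26 alternatives (adjusted p 0.000121 to 0.0412) and Cdh19 at P18 in 25 of 25 (1.16e-05 to 0.0167). Lgi4 at P5 passed in 21 of 26 (0.000324 to 0.364) and Cadm4 in 10 of 26 (0.00601 to 0.467), while for the difference between the ages Art3 passed in 24 of 25 (0.000416 to 0.0557) and Cdh19 in 10 of 25 (0.00252 to 0.217). No called value changed sign. The 3 genes called lower at P5 became 1 with separate fits per age, 5 with array weights and 1 with the Y-linked covariate. At P18 the 1 gene called higher became 2 with separate fits and 2 with array weights, which also called 1 lower. The 2 called for the difference between the ages became 1 with the replicate block, 1 with quantile normalization, 5 with array weights and 0 with the Y-linked covariate, where 6 of the 10 genes, 5 of them positive, had an unadjusted p under 0.05 (limma). With each array left out in turn, the count lower at P5 ran from 1 (without P5 Tg/Tg replicate 4, Tg/Tg replicate 5 or WT replicate 5) to 4 (without P5 Tg/Tg replicate 3 or WT replicate 1), and that of the difference from 1 to 4, the last without P5 WT replicate 1. The cause of these changes was not tested.

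Whether replicate numbers pair the samples is not known. The paper names a block design without saying what the block was. Deviations of arrays with the same number correlated at -0.22 to 0.36 at P5 and at 0.00 to 0.07 at P18. Of 8 arrays, 3 correlated best with their own number, among them P5 replicates 1 (0.29) and 2 (0.36). Such correlations cannot exclude a pairing. The replicate block ended the P5 call of Cadm4 (adjusted p = 0.078) and the difference of Cdh19 (0.0663) and no other call of the 10 genes in the genotype comparisons. It moved the count of other Schwann lineage genes from 4 to 3 lower at P5 and from 6 to 5 higher for the difference, and that of granule cell markers from 6 to 5 lower at P18. With it 1 melanocyte and 1 oligodendrocyte marker became called lower at P5, and 1 cadherin and 1 oligodendrocyte marker higher at P18. The mean over all probesets of a gene was not run, since each of the 10 genes had 1 probeset.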
